A study of Mus musculus with 8 samples.

Results

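The insulin-like growth factor binding proteins (Igfbp) were followed in mouse liver, where 10 probes of the bead array carry the symbol of 1 of the 7 genes Igfbp1 to Igfbp7, out of 25697 probes in all. The members were chosen by gene symbol alone. Total RNA came from livers of Balb/c mice aged 2 months, and each sample was hybridised to 1 array. Wild-type mice received vehicle (n = 1) or carbon tetrachloride (CCl4, n = 3), and mice lacking the type 2 cytokine genes Il4 and Il13 (IL-4/IL-13-/-, here the knockout) received vehicle (n = 1) or CCl4 (n = 3). The labels state no dose, time after CCl4, sex, number of animals per array or origin of the alleles, and nothing in them says that the CCl4 arrays of a group came from separate animals. Hepatocytes around the central vein turn CCl4, a solvent, into a radical through their cytochrome P450 enzymes, and die of it.

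The binding proteins are secreted carriers of the growth factors Igf1 and Igf2. They hold the factors away from their receptor or deliver them to it, and proteases that cut the carriers release the factors. Liver makes most of the circulating Igf1 and several of the carriers. Igfbp1 in hepatocytes is repressed by insulin and rises in fasting, stress and liver regeneration. Igfbp3 and Igfbp5 can bind a growth factor together with the acid-labile subunit Igfals, the form in which most of it circulates. Igfbp7 resembles the others in its first domain and binds the factors weakly.

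Of the 7 genes, 6 passed the filter on dim probes, which kept a probe only where some group had a detection p-value under 0.01 on each of its arrays. That p-value compares a probe with the negative control beads of its array. Igfbp1, Igfbp2, Igfbp4 and Igfbp7 were above background on all 8 arrays, Igfbp5 on 7 and Igfbp3 on 3. The single probe of Igfbp6, whose protein prefers Igf2, was above background on no array, with a lowest detection p of 0.135. Igfbp3 passed the filter through the lone knockout vehicle array alone. Raw array medians ran from 60.9 to 76.9, and Il4 and Il13 were above background on 0 arrays, so their probes check nothing about the genotype. Among the hepatocyte markers Ttr, Apoa1, Cps1, Hnf4a and Serpina1a were above background on all 8 arrays, the albumin probe (Alb) on 4, and Fgb and Tat on none. All values below are background-corrected, quantile-normalized log2 intensities, and tests are limma fits over 7257 genes with Benjamini-Hochberg adjustment at 0.05. A probe's level was not set against that of another probe.

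After CCl4, Igfbp1 rose and Igfbp5 fell in both genotypes. As the mean of the genotypes, Igfbp1 rose by 2.71 ± 0.27 on the log2 scale (SE), or 6.55-fold, and Igfbp5 fell by 1.98 ± 0.25, to a level 3.94-fold lower. Igfbp4 also passed, at -0.50 ± 0.15. Igfbp2, Igfbp3 and Igfbp7 did not. The calls were thus 1 higher and 2 lower of 6 tested, where 37.5% of the 7257 genes were called, 18.9% higher and 18.6% lower.

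The sequences upstream of the genes that changed in both genotypes are shown as a reference for the forkhead motifs searched below, from RefSeq on GRCm38.p6. Each is the run of 250 bases directly before the annotated start, 5′ to 3′ on the gene's strand. Igfbp1 lies at chr11:7197537-7197786 on the plus strand and Igfbp5 at chr1:72874866-72875115 on the minus strand, and capitals mark a motif match.
Igfbp1: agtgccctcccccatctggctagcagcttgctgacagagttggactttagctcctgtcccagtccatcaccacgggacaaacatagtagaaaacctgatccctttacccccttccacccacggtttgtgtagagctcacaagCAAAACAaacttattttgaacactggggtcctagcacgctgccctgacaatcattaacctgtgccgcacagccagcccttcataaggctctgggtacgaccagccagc
Igfbp5: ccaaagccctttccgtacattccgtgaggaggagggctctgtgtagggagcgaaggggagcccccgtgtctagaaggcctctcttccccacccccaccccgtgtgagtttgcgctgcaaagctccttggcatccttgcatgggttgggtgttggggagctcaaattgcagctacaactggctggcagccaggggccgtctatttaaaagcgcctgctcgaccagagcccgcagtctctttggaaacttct

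Forkhead factors such as Foxo1, which insulin signalling keeps out of the nucleus, bind sites of this kind. The forkhead motif TGTTTTG was searched on both strands in the 250 bases before the start, in 8 windows for the 7 genes. Another forkhead motif, TGTTTAC, and the motif of the hepatocyte factor HNF1 were searched in the same way. The only match was in the Igfbp1 window, where the first of these lies on the minus strand and so reads CAAAACA above, from base -108 to base -102 counted from the start. Of the 32851 windows of this length in the table, 5.56% hold the matched motif, 3.17% the other forkhead motif and 0.00913% that of HNF1. A match describes letters and is not evidence of binding.

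Igfbp1 stood at 7.29 on the wild-type vehicle array and at 8.21 on the knockout one. It read 11.31, 10.50 and 10.97 on the wild-type CCl4 arrays and 9.81, 9.60 and 10.57 on the knockout CCl4 arrays. All 6 CCl4 arrays lay above both vehicle arrays, a separation in 1 direction or the other that 38.8% of genes showed. The response was 3.64 ± 0.38 in wild type, a 12.4-fold rise (adjusted p = 7.45e-05, limma), and 1.79 ± 0.38 in the knockout, a 3.45-fold rise (adjusted p = 0.00637, limma). The call in the knockout was lost where no probe filter was used (adjusted p = 0.0522).

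The knockout response of Igfbp1 was smaller by -1.85 ± 0.53 on the log2 scale, which did not pass (adjusted p = 0.119, limma interaction). The 2 vehicle arrays differed by 0.91, and that difference enters this value in full. After CCl4 the knockout was at -0.93 ± 0.27 against wild type (adjusted p = 0.0606, limma), with the highest knockout array above the lowest wild-type array. This difference passed where 1 array was left out in 2 of 8 cases, those of wild-type replicate 2 (-1.15) and knockout replicate 3 (-1.22), and with the deposited values (-1.20) and an offset of 50 (-0.91).

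**Figure D1:**
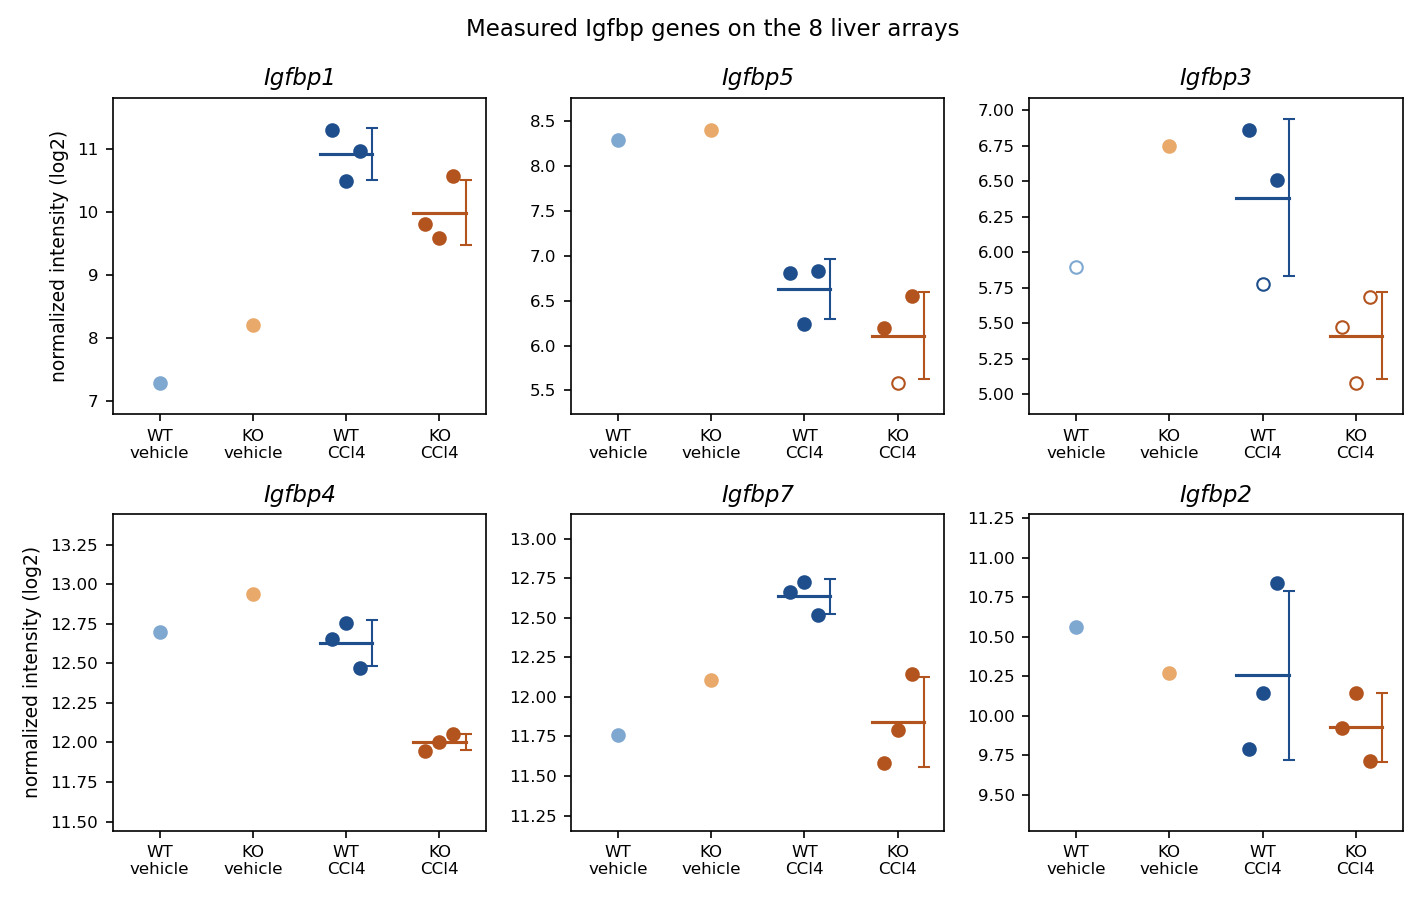
Normalized log2 intensity (vertical axes, each with its own range) of the 6 measured Igfbp genes on every array, by group (WT wild type, KO knockout). Filled points are above background at a detection p under 0.01 and open points are not, lines are means and bars are SD of the 3 CCl4 arrays; Igfbp1 is higher and Igfbp5 lower on all 6 CCl4 arrays than on both vehicle arrays.

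Igfbp2, another carrier that hepatocytes secrete, read 10.56 and 10.27 on the wild-type and knockout vehicle arrays. It read 9.79, 10.14 and 10.84 on the wild-type CCl4 arrays and 9.92, 10.15 and 9.71 on the knockout CCl4 arrays, so the genotypes overlapped. The wild-type CCl4 arrays spanned both vehicle values, and the knockout CCl4 arrays lay below both. The CCl4 response was -0.32 ± 0.24 as the mean of the genotypes, with a 95% interval from -0.86 to 0.21, and did not pass (adjusted p = 0.320, limma). The genotype difference after CCl4 was -0.33 ± 0.24, with an interval from -0.86 to 0.21 (adjusted p = 0.434, limma). The second Igfbp2 probe gave -0.61 ± 0.22 between genotypes in the fit of every probe (adjusted p = 0.116, limma) and -0.21 ± 0.22 for CCl4, and there the 3 knockout arrays (9.27 to 9.57) lay below the 3 wild-type arrays (9.69 to 10.55). The intervals are wide enough to hold a change of nearly 1 on the log2 scale in the lower direction.

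Igfbp5, a carrier that binds extracellular matrix, read 8.29 and 8.40 on the wild-type and knockout vehicle arrays. It read 6.80, 6.24 and 6.83 on the wild-type CCl4 arrays and 6.19, 5.59 and 6.55 on the knockout CCl4 arrays. Every CCl4 array lay below both vehicle arrays, and 1 knockout array was not above background. The response was -1.66 ± 0.35 in wild type (adjusted p = 0.0059, limma) and -2.29 ± 0.35 in the knockout (adjusted p = 0.0011, limma), or 3.17-fold and 4.90-fold lower. The genotype difference after CCl4, -0.52 ± 0.25, did not pass (adjusted p = 0.219, limma). With the deposited values the wild-type response missed the threshold (-1.54, adjusted p = 0.0546).

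Igfbp5 and Igfbp2 are adjacent protein-coding genes on chromosome 1 in the RefSeq table, as Igfbp1 and Igfbp3 are on chromosome 11. As the mean CCl4 response, Igfbp5 was at -1.98 ± 0.25 and Igfbp2 at -0.32 ± 0.24, and Igfbp1 at 2.71 ± 0.27 and Igfbp3 at -0.42 ± 0.26. The differences between neighbours were not tested. Between genotypes after CCl4 the fitted values were -0.93 for Igfbp1 and -0.97 for Igfbp3, with Igfbp7 on chromosome 5 at -0.80. Igfbp3 was above background on no knockout CCl4 array, so its value gives no exact fold.

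Between the genotypes after CCl4, 3 of the 6 measured genes were lower in the knockout and 0 higher, namely Igfbp3, Igfbp4 and Igfbp7, while 6.49% of the 7257 genes were called, 3.60% lower and 2.89% higher. The other 3 members also had negative values, so 6 of 6 were below 0, beside 51.6% of all genes. The median over the 6 was -0.71, and over all genes -0.01. These calls sat close to the threshold: 0 of the 6 genes passed without wild-type replicate 1, without knockout replicate 1, without knockout replicate 2, or where no probe filter was used, and the numbers of all genes called in these fits were 129, 122, 128 and 107 against 471. In bulk tissue, fewer cells of a type and less RNA per cell cannot be told apart.

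Igfbp3, the main carrier in blood, read 5.89 on the wild-type vehicle array and 6.75 on the knockout one, where only the latter was above background. It read 6.86, 5.78 and 6.51 on the wild-type CCl4 arrays, of which 2 were above background, and 5.48, 5.08 and 5.68 on the knockout CCl4 arrays, of which 0 were. The knockout and wild-type CCl4 arrays did not overlap, which 30.3% of genes showed. The fitted difference was -0.97 ± 0.26 (adjusted p = 0.0495, limma). The probe had only a bound in the knockout, so the gene was at least 1.35-fold higher in wild type, from group means of 6.38 and 5.41. The call was lost without any 1 of 5 CCl4 arrays (wild-type replicates 1 and 3 and all 3 knockout replicates, highest adjusted p = 0.176).

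In the knockout Igfbp3 was lower after CCl4 than on the vehicle array, by -1.33 ± 0.37 as fitted and by at least 1.73-fold as a bound (adjusted p = 0.0215, limma). The knockout vehicle array is both the high side of this comparison and the only group through which the gene passed the filter, so the filter favoured such a fall and the value is a description. In wild type it was at 0.49 ± 0.37 and did not pass (adjusted p = 0.358, limma). The difference of the responses, -1.82 ± 0.52, did not pass either (adjusted p = 0.117, limma). The knockout response was lost without knockout replicate 2 (adjusted p = 0.0536) and with the deposited values (adjusted p = 0.0782). In each genotype the 3 CCl4 arrays stood in the same order for Igfbp3 as for Igfbp1, with replicate 1 highest in wild type, replicate 3 highest in the knockout and replicate 2 lowest in both. The knockout values of Igfbp3 in this order, and that of wild-type replicate 2, were not above background. Igfbp5 had the same order in the knockout, but replicate 3 highest in wild type.

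Igfbp4, a carrier that mostly blocks growth factor action until the protease Pappa cuts it, had the smallest SE of the 6 in this comparison. It read 12.70 and 12.94 on the wild-type and knockout vehicle arrays. The wild-type CCl4 arrays read 12.66, 12.76 and 12.47, and the knockout CCl4 arrays 11.95, 12.003 and 12.05. The knockout CCl4 arrays were thus below all other arrays, while wild-type CCl4 and vehicle arrays overlapped. The genotype difference after CCl4 was -0.63 ± 0.15, 1.54-fold lower in the knockout (adjusted p = 0.0353, limma). It was lost without any 1 of 5 CCl4 arrays (highest adjusted p = 0.121, kept without wild-type replicate 3) and with median scaling (-0.40, adjusted p = 0.123).

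The response of Igfbp4 to CCl4 was -0.94 ± 0.21 in the knockout (adjusted p = 0.00918, limma) and passed there in every alternative tried. In wild type it was -0.07 ± 0.21 (adjusted p = 0.843, limma), and the difference of the responses was -0.87 ± 0.30 (adjusted p = 0.159, limma). The called mean over genotypes was -0.07 without the knockout vehicle array, since that fit holds the wild-type response alone. The second Igfbp4 probe gave -0.60 ± 0.17 between genotypes (adjusted p = 0.0605, limma) and -0.79 ± 0.24 for CCl4 in the knockout (adjusted p = 0.0334, limma). The probes therefore gave values of the same sign and near the same size, of which the genotype value of the second missed the threshold.

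Igfbp7, which is known for expression in blood vessel endothelium, read 11.76 and 12.10 on the wild-type and knockout vehicle arrays. It read 12.66, 12.73 and 12.52 on the wild-type CCl4 arrays and 11.58, 11.79 and 12.14 on the knockout CCl4 arrays. All 3 wild-type CCl4 arrays lay above every other array. The genotype difference was -0.80 ± 0.18, 1.74-fold lower in the knockout (adjusted p = 0.0273, limma). It was lost without any 1 of 4 CCl4 arrays (wild-type replicates 1 and 2, knockout replicates 1 and 2, highest adjusted p = 0.107) and with median scaling (-0.56, adjusted p = 0.0752). The other Igfbp7 probe was above background on 0 of 8 arrays, with a lowest detection p of 0.372, so the call rests on 1 probe.

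Igfbp7 rose by 0.88 ± 0.25 after CCl4 in wild type (adjusted p = 0.0258, limma) and was at -0.26 ± 0.25 in the knockout (adjusted p = 0.458, limma). The difference of the responses was -1.14 ± 0.35 (adjusted p = 0.134, limma). The wild-type call was lost without wild-type CCl4 replicate 1 (0.86, adjusted p = 0.0569) and with median scaling (0.60, adjusted p = 0.108), the deposited values (0.85, adjusted p = 0.0631) or no probe filter (adjusted p = 0.0592). In the same comparison 9 of 13 stellate cell and myofibroblast markers rose and 1, Lrat, fell (fitted -0.93 ± 0.25). Of the 9, Col1a1 passed the filter through the wild-type CCl4 arrays alone, so the filter favoured that call. Of the 8 arrays, Timp1 and Hgf were above background on 6 and Lrat on 3, so Lrat has no exact fold. Of 10 Kupffer cell and macrophage markers 5 rose, and of 14 endothelial markers 2 rose, with 0 called lower in either list. Among these, Ly6c1 was above background on 5 arrays, and Lyve1 was not above it on the wild-type vehicle array. Among all 7257 genes 897 were called higher and 845 lower. The part of these cells in the value of Igfbp7 was not tested.

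**Figure D2:**
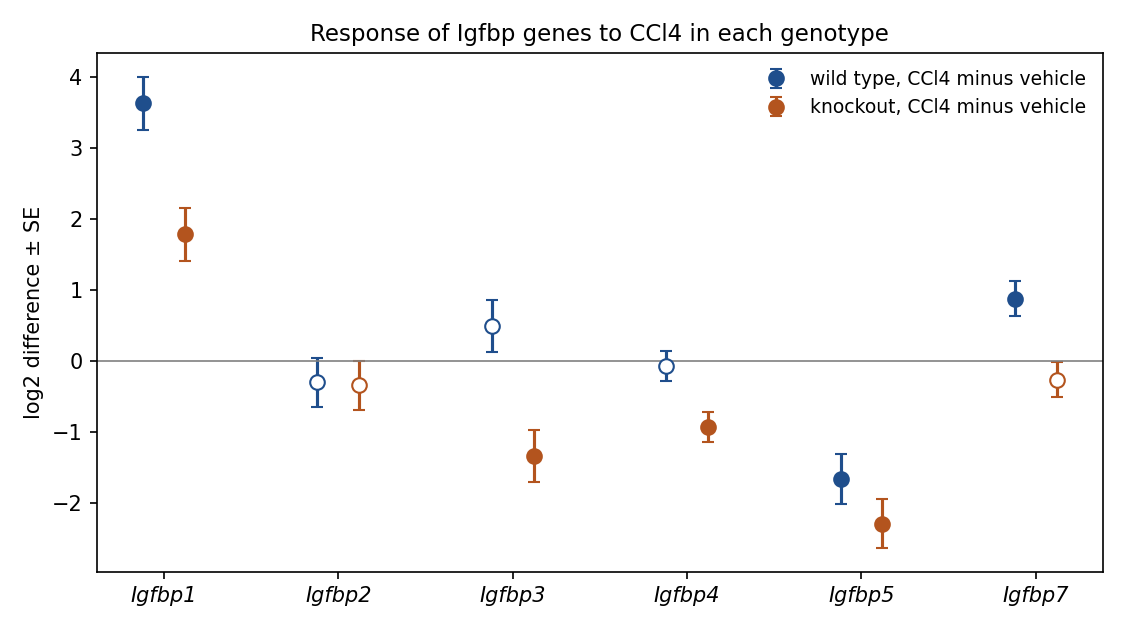
CCl4 minus vehicle on the log2 scale (vertical axis) for 6 Igfbp genes, in wild type (blue) and in the knockout (orange), with the SE of the limma fit as bars. Filled points passed the adjusted threshold of 0.05 and open points did not; Igfbp1 (3.64 and 1.79) and Igfbp5 (-1.66 and -2.29) passed in both genotypes, Igfbp7 in wild type alone, and Igfbp3 and Igfbp4 in the knockout alone, with 0 of the 6 differences between the responses passing.

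By genotype, 2 of the 6 genes rose and 1 fell after CCl4 in wild type, where 24.0% of all genes were called in either direction. In the knockout 1 rose and 3 fell, where 25.8% were called. The 3 include Igfbp3, which the filter kept for its high vehicle array. Each response rests on 1 vehicle array, which was assumed to vary like the CCl4 arrays, and these comparisons share arrays with each other and with the genotype difference. For the interaction 0 of 6 passed (limma), while 0.358% of all genes did. In that fit 4 of the 6, Igfbp1, Igfbp3, Igfbp4 and Igfbp7, were under 0.05 before adjustment. By p they ranked 309, 293, 682 and 412 among the 7257 genes. The share of all genes under 0.05 before adjustment is not given, so the count of 4 has no background beside it. The knockout vehicle array, through which alone Igfbp3 passed the filter, also enters this comparison. On the vehicle arrays themselves, compared without a test, the knockout was higher by 0.91 for Igfbp1, 0.85 for Igfbp3, 0.35 for Igfbp7, 0.24 for Igfbp4 and 0.11 for Igfbp5, and was at -0.29 for Igfbp2.

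**Figure D3:**
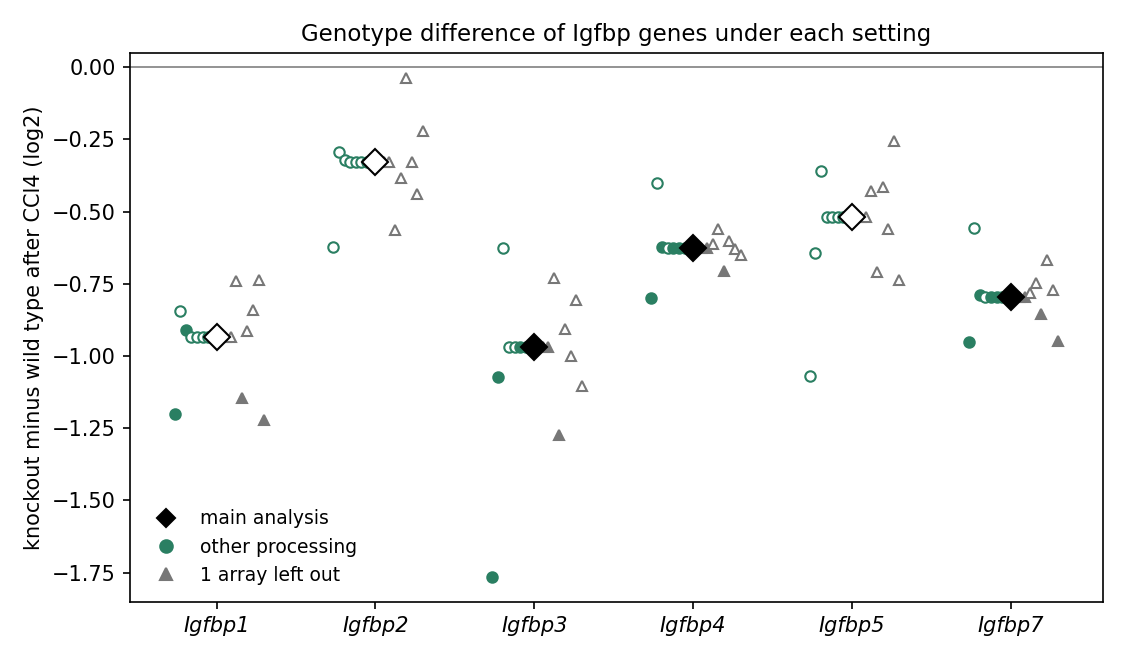
Knockout minus wild type after CCl4 on the log2 scale (vertical axis) for 6 Igfbp genes under every setting: diamonds for the analysis reported, circles for other processing and triangles with 1 array left out. Filled symbols passed the adjusted threshold of 0.05; every value is below 0, and Igfbp1, Igfbp3, Igfbp4 and Igfbp7 have both filled and open symbols.

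Markers of other liver cells were compared in the same way, where 6.49% of all genes were called. Of 14 measured endothelial markers, 4 were lower in the knockout after CCl4 (Eng, Lyve1, Ehd3 and Stab2, from -0.59 to -0.84) and 0 higher, with a median of -0.37. Their summed normalized intensity ran from 9285 to 10974 on the wild-type and from 7912 to 8197 on the knockout CCl4 arrays. Bright probes weigh most in such linear sums, here Clec4g, which was at -0.33 and not called. From this list Cdh5, Kdr, Flt4, Tie1 and Bmp2 were above background on no array. Pecam1 (-0.64), Tek (-0.19), Emcn (-0.04) and Egfl7 (0.11) were measured and not called. Of 13 stellate cell and myofibroblast markers, 1 was lower, the collagen gene Col1a1, and 0 higher, with a median of -0.44 and sums from 12968 to 16098 in wild type and from 10428 to 10857 in the knockout. The bright probes in these sums, Dcn (-0.35), Reln (-0.79) and Ecm1 (-0.55), were not called. The wild-type CCl4 arrays (3 of 3) were the only ones with Col1a1 above background. It was thus at least 1.57-fold higher in wild type, from group means of 6.61 and 5.14. Col1a1 passed the filter through these arrays alone, so the filter favoured this call. Rgs5 and Col1a2 of this list were above background on no array. Of 10 Kupffer cell and macrophage markers, 1 was lower (C1qb, -0.61 ± 0.16) and 0 higher, with a median of -0.17, values above 0 for Timd4 (0.36), Ly6c1 (0.50), Adgre1 (0.25) and Lyz2 (0.15), and sums from 5967 to 7692 and from 5734 to 7097, and Cd5l and Ccr2 were above background on no array. Of 3 neutrophil markers 1, Prtn3, was called higher in the knockout, with a fitted 2.78 ± 0.36, and 0 were lower. Prtn3 was above background on 2 of 3 wild-type CCl4 arrays and on neither vehicle array. It passed the filter through the knockout CCl4 arrays alone, so the filter favoured this call. S100a8 (0.94) and S100a9 (0.97) were not called. None of 8 T, B and NK cell markers on the array was above background. Hepatocyte markers had 0 calls among 6, with sums from 56083 to 63519 and from 57095 to 58976. The part of these cells in the values of Igfbp3, Igfbp4 and Igfbp7 was not tested.

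The knockout CCl4 arrays were also dimmer than the wild-type ones, with raw medians from 63.6 to 66.9 against 68.5 to 76.9. Without normalization between arrays, as in the deposited values, the median of all genes shifted by -0.37 between genotypes. Relative to that shift Igfbp3 was at -1.40, Igfbp7 at -0.58 and Igfbp4 at -0.43, and relative to the median shift of -0.07 under median scaling they were at -0.999 (Igfbp3), -0.48 (Igfbp7) and -0.33 (Igfbp4).

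Other genes of the growth factor pathway were read from a list of 34 ligands, receptors, adaptors and proteases of the binding proteins, of which 28 are on the array and 15 were measured. After CCl4, as the mean of the genotypes, 3 rose and 4 fell, with a median of -0.27 against -0.02 for all genes, of which 18.9% rose and 18.6% fell. Igfals, the acid-labile subunit, fell by 1.62 ± 0.23 (adjusted p = 0.000296, limma). It read 12.07 and 11.99 on the wild-type and knockout vehicle arrays, 10.19, 10.91 and 9.94 on the wild-type CCl4 arrays and 10.63, 10.39 and 10.41 on the knockout ones. All 6 CCl4 arrays were below both vehicle arrays, and the genotypes overlapped.

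Of the ligands, Igf1 was lower after CCl4 by -0.60 ± 0.16 (adjusted p = 0.0119, limma). It read 12.49 and 12.54 on the vehicle arrays, 11.82 to 12.22 on the wild-type and 11.71 to 11.82 on the knockout CCl4 arrays. Without the knockout vehicle array the value was -0.44 (adjusted p = 0.172). Igf2, the fetal ligand, was not above background on either vehicle array and was above it on all 3 wild-type CCl4 arrays (8.20, 7.28 and 8.50) but on 1 of 3 knockout ones (5.90, 5.29 and 5.36). Its mean over both genotypes was called higher (adjusted p = 0.00153, limma). That mean takes in knockout CCl4 arrays that were not above background, so no fold is given. Without the wild-type vehicle array, which leaves the knockout response alone, the value was 0.38 and did not pass. In wild type alone the rise was at least 3.62-fold, and in the knockout no rise could be bounded. Its genotype difference after CCl4 passed (adjusted p = 0.000958, limma), with group means of 7.99 and 5.51. The fitted -2.48 ± 0.28 is set against knockout values at or near background and gives no exact fold, and the gene passed the filter through the wild-type CCl4 arrays alone.

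Of the receptors, Igf1r and Insr were above background on no array. Igf2r, the receptor that clears Igf2, was at 0.66 ± 0.21 after CCl4 (adjusted p = 0.0282, limma), from 7.67 and 8.05 on the vehicle arrays to between 8.16 and 8.88 on the CCl4 arrays. That call was lost without either vehicle array, without wild-type replicate 3 or without knockout replicate 2 (adjusted p from 0.0509 to 0.267). Between genotypes Igf2r was at -0.02 ± 0.21. Tmprss2, a membrane serine protease, rose by 0.81 ± 0.16, though not without the knockout vehicle array (0.48, adjusted p = 0.138).

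After CCl4, 3 of the 15 pathway genes were lower in the knockout and 0 higher, beside 3.60% and 2.89% of all genes. They were Igf2, Grb10 and Irs2, of which Igf2 passed the filter through its high wild-type CCl4 arrays alone. The receptor-binding adaptor Grb10 was at -2.26 ± 0.18 (adjusted p = 7.24e-05, limma). The insulin receptor substrate Irs2 was at -0.996 ± 0.16 (adjusted p = 0.00701, limma). Irs2 read 7.65, 7.40 and 7.38 on the wild-type and 6.67, 6.41 and 6.37 on the knockout CCl4 arrays, with 7.51 and 7.58 on the vehicle arrays. Grb10 read 10.11, 9.98 and 9.71 against 7.47, 7.63 and 7.92, and its vehicle arrays already stood apart, at 9.37 in wild type and 7.70 in the knockout. The proteases of the binding proteins Htra1 and Adamts1 and the Pappa inhibitors Stc1 and Stc2 were above background on no array.

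**Figure D4:**
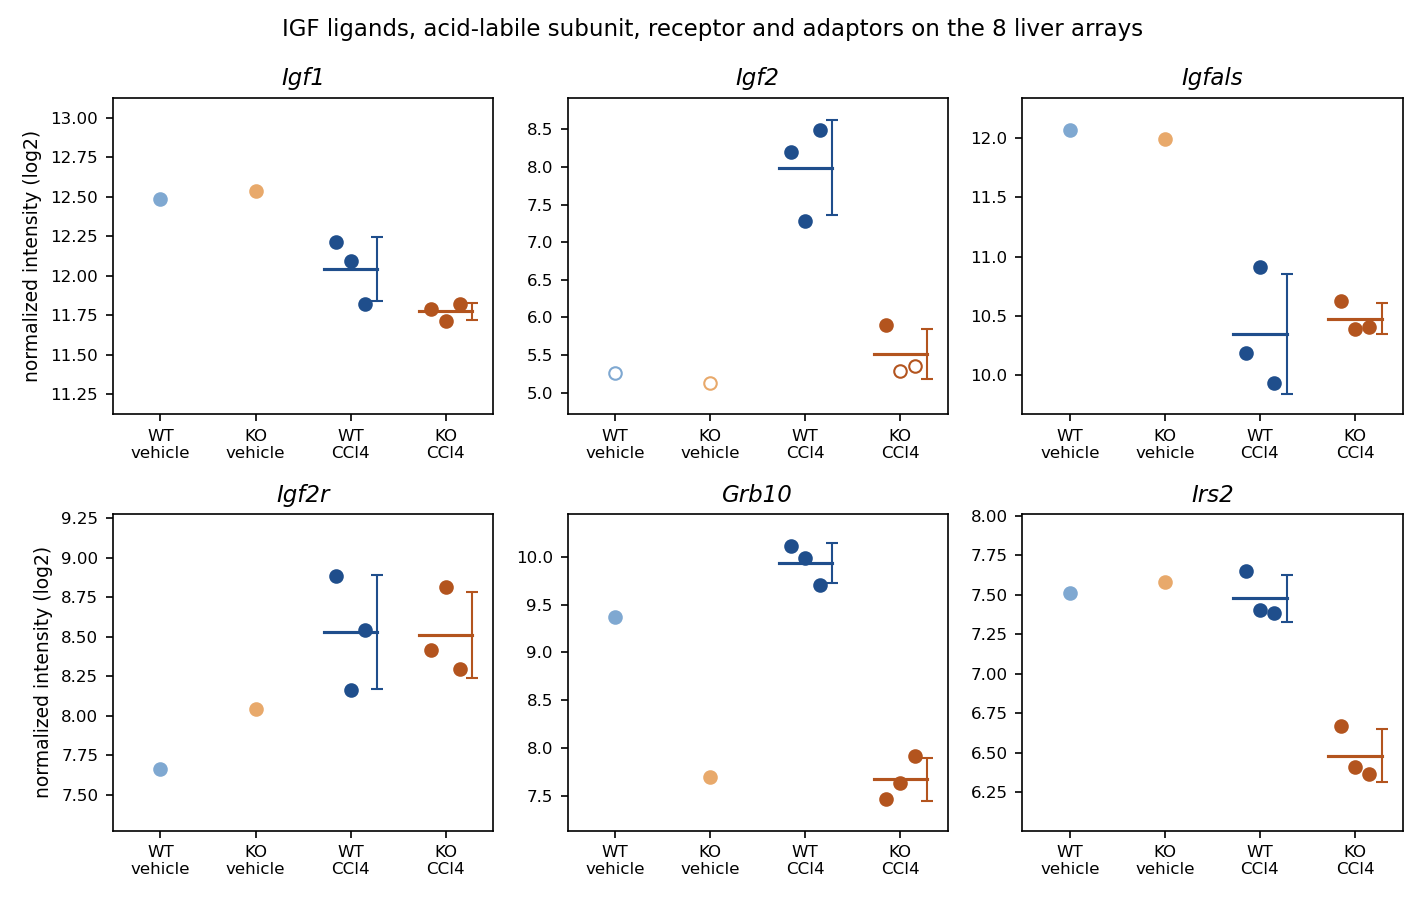
Normalized log2 intensity (vertical axes, each with its own range) of 6 partners of the binding proteins on every array, by group (WT wild type, KO knockout). Filled points are above background at a detection p under 0.01, open points are not, lines are means and bars are SD of the 3 CCl4 arrays; Igf1 and Igfals are below both vehicle arrays on all 6 CCl4 arrays, and Igf2, Grb10 and Irs2 do not overlap between the genotypes after CCl4.

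Igfbp1 is one of the liver genes that answer to low insulin and fasting, and 16 others of a list of 27 such and related genes were measured. After CCl4 2 of them rose and 8 fell as the mean of the genotypes, with a median of -0.59. Of all genes 18.9% rose and 18.6% fell in this comparison. Asns and Atf3, which rose, were above background on no vehicle array and passed the filter through CCl4 arrays alone. Fasn, which fell, passed it through the knockout vehicle array alone. The filter thus favoured these calls. The 4 genes of the list with the smallest p fell. Thrsp, a lipogenic gene that insulin raises, was at -3.40 ± 0.22. Pklr, the liver pyruvate kinase, was above background on 2 of 8 arrays, those of knockout vehicle and 1 knockout CCl4 replicate, and passed the filter through its high knockout vehicle array (8.64) alone, so its fitted value of -1.65 gives no exact fold. Pck1, the gluconeogenic enzyme that fasting raises, was at -1.97 ± 0.24 and Depp1, a forkhead target, at -2.37 ± 0.36. Pck1, which fasting raises, and Thrsp, which feeding raises, were thus both among the genes that fell while Igfbp1 rose. With the knockout vehicle array left out, Pklr (-0.55, adjusted p = 0.110) and Depp1 (-0.49, adjusted p = 0.515) missed the threshold.

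Between genotypes 1 of these 16 was higher and 5 were lower in the knockout after CCl4, with a median of -0.48. Of all genes 2.89% were higher and 3.60% lower. Depp1 was at -2.47 ± 0.36, a call lost with no probe filter (adjusted p = 0.0652, limma), and Irs2 is given above. The hypoxia factor Hif1a, not above background on the knockout CCl4 arrays, was at least 1.13-fold higher in wild type (adjusted p = 0.0108, limma). Thrsp was higher in the knockout by 1.19 ± 0.22 and did not pass without knockout replicate 1 (adjusted p = 0.0616), with the deposited values (adjusted p = 0.0650) or with no probe filter (adjusted p = 0.0872).

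Of the growth hormone pathway, which drives Igf1, Igfals and Igfbp3 in liver, 6 of 9 listed genes were measured. As the mean of the genotypes after CCl4, 2 passed as higher and 3 as lower, beside 18.9% and 18.6% of all genes. The feedback inhibitor Socs3 rose by 3.57 ± 0.41, the receptor Ghr fell by 1.82 ± 0.26, the feedback inhibitor Socs2 by 1.20 ± 0.29 and the transcription factor Stat5a by 0.75 ± 0.22. The other gene called higher, the feedback inhibitor Cish (0.57 ± 0.20), had opposite responses, at -1.04 ± 0.28 in wild type and 2.18 ± 0.28 in the knockout, each of which passed. Its vehicle arrays already stood apart, at 9.92 in wild type and 7.03 in the knockout, while its CCl4 arrays overlapped between genotypes. Socs2 (adjusted p = 0.156) and Stat5a (adjusted p = 0.211) did not pass without the wild-type vehicle array. Between genotypes after CCl4 0 of the 6 passed (limma), while 6.49% of all genes did.

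The genes whose normalized values ran closest to each member over the 8 arrays were named from all 7257 genes tested, as a description. They were Emp1 (Pearson r = 0.991), Lgals3 (0.986) and the endothelial gene Lyve1 (0.986) for Igfbp1, and Smim19 (0.970), Pex16 (0.968) and Sidt2 (0.967) for Igfbp5. For Igfbp7 they were Cd81 (0.982), Morf4l1 (0.982) and the collagen gene Col1a1 (0.968), for Igfbp4 Man2b1 (0.982), Sqstm1 (0.974) and Nfic (0.973), for Igfbp3 Ppp1r16a (0.954), Wfs1 (0.947) and Fam76a (0.942), and for Igfbp2 Taar3 (0.874), Yif1a (0.869) and Arap3 (0.863). Over the 6 CCl4 arrays the closest to Igfbp7 were Clec1b and Clec4f (both 0.996), genes of sinusoidal endothelium and of Kupffer cells. These points share the gaps between groups and the normalization of each array.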

How the data were processed

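Biotinylated cRNA from 8 liver RNA samples was read on 1 Illumina array each, per the labels' protocols. The deposited table gives bead intensity per probe on a linear scale, not normalized between arrays, with a detection p-value per the file headers. The labels and headers name no scanner software or earlier background step. A second deposited table was that intensity minus 1 constant per array (48.6 to 56.8, column medians 12.3 to 20.0, linear, same direction, reason unknown) and served as an alternative. The first table was background-corrected and quantile-normalized by the neqc function of limma 3.58.1 (R 4.3.3, offset 16), with controls inferred from detection p-values. Of 25697 probes 10128 passed the filter, and each of 7257 genes was represented by its probe of highest mean intensity. Of 23978 probes with a platform symbol, 23962 matched RefSeq (GRCm38.p6), used for names, neighbours and promoters. The fit of 4 group means used lmFit and eBayes, 2-sided, with 4 residual degrees of freedom, all from the CCl4 arrays. P-values measure the spread between these arrays, which may be technical, and their number limits the precision. For a gene below background throughout the lower group, a fold is a bound against the dimmest detected signal of each array or the probe's own value, whichever was higher. The fit was tested on simulated data. Members, lists and tests were chosen with earlier results of these data known. All members were named, and of each list the genes with the smallest p, at most 4 a comparison, with the ligands and receptors. The other marker and protease names, the neighbour pairs and the order of arrays were chosen after their values were seen.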

Additional observations from a re-analysis of the deposited data

Results flagged for a closer look

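The responses to CCl4 of Cish, a feedback inhibitor of growth hormone signalling, differed between the genotypes by 3.22 ± 0.40 on the log2 scale in the limma interaction test (adjusted p = 0.00697), a call lost with no probe filter (adjusted p = 0.0979). All 3 wild-type CCl4 arrays were below the wild-type vehicle array, by -0.81 to -1.32, and all 3 knockout arrays above theirs, by 1.81 to 2.44. The pyruvate kinase gene Pklr differed by -2.21 ± 0.33 (adjusted p = 0.0179), but was above background on no wild-type array and on 1 knockout CCl4 array. It passed the filter through the lone knockout vehicle array, where it was high, so the fitted value rests on that array and on values at background. That call was lost with the deposited values (adjusted p = 0.0813) and with no probe filter (adjusted p = 0.0979). The adaptor gene Shc1 was above the vehicle array on all wild-type CCl4 arrays and below it on all knockout ones; its interaction, -0.88 ± 0.30, did not pass (adjusted p = 0.153). Each rests on 1 vehicle array per genotype, and whether those arrays stand for their groups was not tested. No Igfbp gene met these conditions, and no group is large enough for a test of single outlying arrays.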

How the results depend on the processing

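Over 462 recomputed values of the 6 Igfbp genes, 415 kept their direction and their side of the threshold, 34 fell below it, 8 rose above it and 5 changed sign, and 0 of the genotype differences changed sign. Igfbp1 and Igfbp5 passed for CCl4 as the mean of the genotypes under every alternative tried. Causes of the changes below were not tested, except that the fit without a filter tests more genes (16593) and a fit without a vehicle array holds the other genotype's response alone. With the deposited values 1304 genes were called between genotypes (57 higher, 1247 lower) against 471 (210 and 261), or 4.37% higher against 44.6%; for CCl4 the higher share was 67.5% of calls against 50.3% as the mean, 73.9% against 51.5% in wild type and 63.3% against 50.3% in the knockout. There Igfbp1 between genotypes was at -1.20 and passed, Igfbp3 in the knockout (-1.64) and Igfbp5 (-1.54) and Igfbp7 (0.85) in wild type did not, 1 member was called in wild type, and 6 genes were called for the interaction against 26. With median scaling 1 member was called between genotypes, with Igfbp4 at -0.40 and Igfbp7 at -0.56 no longer passing, nor Igfbp7 in wild type (0.60). With an offset of 50 Igfbp1 passed between genotypes (-0.91) and Igfbp3 did not (-0.63). With no filter 107 genes and 0 members were called between genotypes, with Igfbp3 (-0.97), Igfbp4 (-0.63) and Igfbp7 (-0.80) lost, as were Igfbp7 in wild type (0.88) and Igfbp1 (1.79) and Igfbp3 (-1.33) in the knockout, where 2 members (Igfbp4 and Igfbp5) passed; 1 gene was called for the interaction. Requiring detection on 3 of 8 arrays lost Igfbp3 between genotypes (-0.97), and a trended robust fit called 76 genes for the interaction.

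With the replicate block Igfbp1 passed between genotypes (-0.93), while Igfbp4 between genotypes (-0.63), Igfbp4 as the mean response (-0.52) and Igfbp7 in wild type (0.76) did not, and 428 genes were called between genotypes. Same-numbered arrays of the genotypes correlated at -0.12 to -0.013 in their deviations, and 0 of 6 correlated best with its own number, so the numbers do not pair the arrays.

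Leaving out 1 array at a time, 122 to 795 genes were called between genotypes, the highest without wild-type CCl4 replicate 3, with 0 to 3 members. The genotype differences ran from -1.22 to -0.74 for Igfbp1, -1.27 to -0.73 for Igfbp3, -0.71 to -0.56 for Igfbp4 and -0.95 to -0.67 for Igfbp7. For the mean response 1742 to 2993 genes were called, with Igfbp3 from -1.33 to 0.49, Igfbp4 from -0.94 to -0.071 and Igfbp7 from -0.26 to 0.88. In wild type Igfbp4 ran from -0.14 to 0.0080 and Igfbp7 from 0.83 to 0.94, and in the knockout Igfbp3 from -1.47 to -1.17. The interaction gave 14 to 128 genes and 0 to 1 members, with Igfbp2 from -0.27 to 0.25 (0.067 without knockout replicate 3) and Igfbp3 from -2.13 to -1.58, called without wild-type replicate 2. Igf2r between genotypes ran from -0.21 to 0.16, above 0 in 3 of 8 cases (0.025 and 0.086 the others). Probes near background limit Igfbp3 and Igf2, and no slide was named, so a slide block was not run.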
